A study of Mus musculus with 6 samples.

Results

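Serine is made from the glycolytic intermediate 3-phosphoglycerate in a chain of reactions. Phosphoglycerate dehydrogenase (Phgdh) oxidises it, phosphoserine aminotransferase (Psat1) adds the amino group, and phosphoserine phosphatase (Psph) releases L-serine. Serine is converted to glycine by the hydroxymethyltransferases Shmt1 and Shmt2, and glycine is broken down in mitochondria by the glycine cleavage system. In that system Gldc, the P protein, removes the carboxyl group, Gcsh, the H protein, carries the rest of the glycine on its lipoyl arm, and Amt, the T protein, passes the one-carbon unit to folate. Gcat joins glycine to the breakdown of threonine, and Sardh makes glycine from sarcosine.

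These 8 enzyme genes (Phgdh, Psat1, Psph, Gldc, Amt, Gcsh, Gcat and Sardh) were taken by symbol from a table of 24391 genes, which held each of them once. Poly(A) RNA had been sequenced from Neuro2a, a mouse neuroblastoma line, in 3 control libraries given vehicle and 3 libraries given 5 mM D-serine, the mirror-image form of L-serine. All 6 cultures were placed in a medium labelled D-MEM(-SG) with 10% FBS and were harvested after 18 h, so the controls had the medium change too. Both groups come from 1 cell line with no genetic change named in the labels. The labels do not say whether replicates were separate cultures, so the p-values measure the spread between these libraries, which may be technical. The comparison asks which transcripts of serine and glycine metabolism differ when D-serine is present.

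Total counts lay between 32518483 and 40024265 per library. Markers of sympathoadrenal neuroblasts were expressed, with Hand2 at 239 to 248 CPM (counts per 1000000 counts of a library, after scaling) in control and 254 to 261 CPM with D-serine, and Chga at 116 to 128 and 116 to 127 CPM. All 5 astrocyte markers and 4 of 5 macrophage markers were below 1 CPM in every library. In the summed fibroblast markers, 20.3 to 24.1 CPM in control stood against 15.5 to 19.6 CPM with D-serine. Nearly all of that sum was Pdgfrb, and Col3a1 and Lum had no count. D-serine replicate 1 stood apart, since its counts depended on gene length more than those of the other libraries. The slope of its deviation in log2 CPM per doubling of exon length was -0.072. In D-serine replicates 2 and 3 the slope was 0.0058 and -0.0040, and in control it was 0.015 to 0.036. Every D-serine slope was thus below every control slope, so the length trend differed between the groups as well.

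The promoters of the serine synthesis genes are shown because these genes include the members that passed the test. RefSeq windows (GRCm38.p6) of 250 bases before to 50 bases after the start of transcription matched all 8 genes by symbol. The sequences run 5′ to 3′ on the gene's strand, which is the minus strand for all 3 genes, and capitals mark the CCAAT motif or its reverse complement ATTGG, the letters that the factor NF-Y is known to bind. Stretches within annotated exons were left out, except for 25 bases around a motif that reached into them. The Psph window lies within exons of Psph or of Cct6a, which runs the other way, so only its motif sites are printed.
Psat1, chr19:15925060-15925309: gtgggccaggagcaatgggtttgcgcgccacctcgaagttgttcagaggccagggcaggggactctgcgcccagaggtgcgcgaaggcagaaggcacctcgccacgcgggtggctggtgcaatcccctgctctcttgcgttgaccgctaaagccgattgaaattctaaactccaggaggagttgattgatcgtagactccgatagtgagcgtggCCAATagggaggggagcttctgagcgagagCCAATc
Psat1, motif at 24, chr19:15925022-15925046: agacagcgaaCCAATggagcgccga
Phgdh, chr3:98339991-98340219: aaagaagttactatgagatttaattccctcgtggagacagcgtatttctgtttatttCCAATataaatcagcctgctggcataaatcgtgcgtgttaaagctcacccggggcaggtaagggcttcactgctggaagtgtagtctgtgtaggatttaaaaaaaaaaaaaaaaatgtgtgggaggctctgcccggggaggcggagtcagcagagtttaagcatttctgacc
Phgdh, motif at -23, chr3:98339978-98340002: gcatttctgaCCAATcaaaaggaga
Psph, first motif, chr5:129787317-129787341: gagcacctccATTGGgtggcgaccc
Psph, second motif, chr5:129787287-129787311: ccgcccgctgATTGGcttaatccaa

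On either strand, CCAAT was found in the windows of 6 of the 8 genes, all except Gcat and Sardh, and in 37.4% of the 32851 RefSeq promoter windows of this length. RefSeq gave Psat1 a second start, at 15924622, whose window held none of the motifs searched. In the Psat1 window shown it began at -36, -6 and 24 relative to the start, in Psph at -78 and -48, and in Phgdh at -193 and -23. The motif TGATGNAA, written for the element that the amino acid response factor ATF4 binds with a C/EBP partner, was in 0 of the 8 genes' windows and in 3.97% of all windows. CACGTG, the E-box that MYC proteins can bind, was in the Gcat window alone among the 8, and in 7.15% of all windows. The search shows only where these letters stand. No occurrence of one motif overlapped another in the 8 genes' windows.

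With D-serine, 2 of the 3 transcripts of serine synthesis passed the test, both lower. Psat1 and Psph fell by 10.3% and 13.2%. Phgdh, the first enzyme, did not pass the test, but its log2 fold change was also below 0, at -0.078. Its interval of -0.18 to 0.024 contains the estimate of Psat1 (-0.16) but not that of Psph (-0.20). In the ratios given below, a larger fall of the later steps than of the first was not shown. None of the 3 glycine cleavage genes among the 8, nor Gcat or Sardh, passed the test. In bulk RNA, fewer cells of a type and less RNA per cell cannot be told apart. Of the 8 genes, all were expressed highly enough to be tested, and 2 were called, both lower, at an adjusted p under 0.05 in edgeR's quasi-likelihood test. Among all 13366 genes tested, 9.74% were called in either direction and 4.90% were called lower. All 16 other settings kept the signs of Psat1 and Psph, but Psat1 kept its call in only 8 of them and Psph in 11. The division of calls over all genes moved with the scaling, from 647 higher and 655 lower genes as reported to 914 and 412 under upper quartile scaling. The 8 genes had a median log2 fold change of -0.0092, 4 above and 4 below 0, where that of all genes tested was 0.0053.

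**Figure D1:**
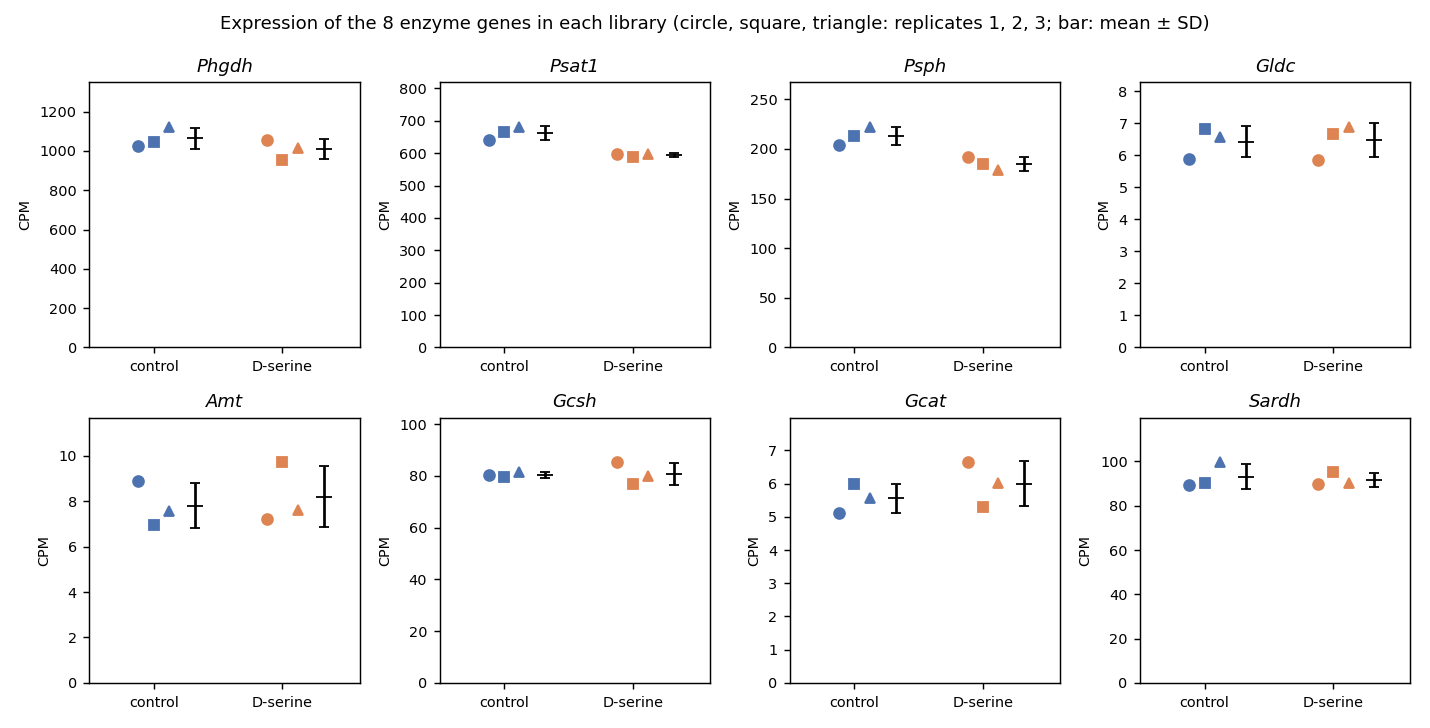
Expression in CPM (vertical axes, from 0) of each of the 8 genes in control and D-serine libraries; points are libraries and the bar beside them is the mean with its SD (n = 3). The Psat1 and Psph points of the D-serine group all lie below those of control, and the groups overlap in the other 6 genes.

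Phgdh, the enzyme that commits carbon to the pathway (chromosome 3, 98117094 to 98143892, minus strand, as deposited), was the most abundant of the 8. It stood at 1024, 1045 and 1124 CPM in control replicates 1 to 3 and at 1054, 954 and 1016 CPM in D-serine replicates 1 to 3. D-serine replicates 2 and 3 were below every control library, but D-serine replicate 1 lay above 2 of the controls. The means were 1064 ± 52.7 and 1008 ± 50.2 CPM (SD, n = 3 each). The log2 fold change was -0.078 (SE 0.047, 95% interval -0.18 to 0.024, edgeR adjusted p = 0.303), so a fall of up to 11.8% lies within the interval.

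Psat1, the aminotransferase of the second step (chromosome 19, 15979613 to 15999549, minus strand), was at 639, 665 and 682 CPM in control. With D-serine it was at 598, 587 and 596 CPM. Every D-serine library was below every control library, and the D-serine libraries lay closer together than the controls. Over all genes tested, 32.9% had no overlap between the groups and 16.6% had none with D-serine lower. Psat1 had a log2 fold change of -0.16 (SE 0.039, 95% interval -0.24 to -0.072, edgeR adjusted p = 0.0279). Without D-serine replicate 1 the call held (adjusted p = 0.0036), but it was lost in the fits that left out any of the other 5 libraries, with a highest adjusted p of 0.127.

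Psph, the phosphatase that releases L-serine (chromosome 5, 130271434 to 130293129, minus strand), was at 204, 213 and 223 CPM in control and at 192, 185 and 178 CPM with D-serine. The groups did not overlap here either, and D-serine replicate 3 was the lowest. For Psph the log2 fold change was -0.20 (SE 0.047, 95% interval -0.31 to -0.10, edgeR adjusted p = 0.0216). The call held without D-serine replicate 1 or 2, at adjusted p-values of 0.00095 and 0.0325. It was lost without D-serine replicate 3 or any control replicate, at up to 0.0944.

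**Figure D2:**
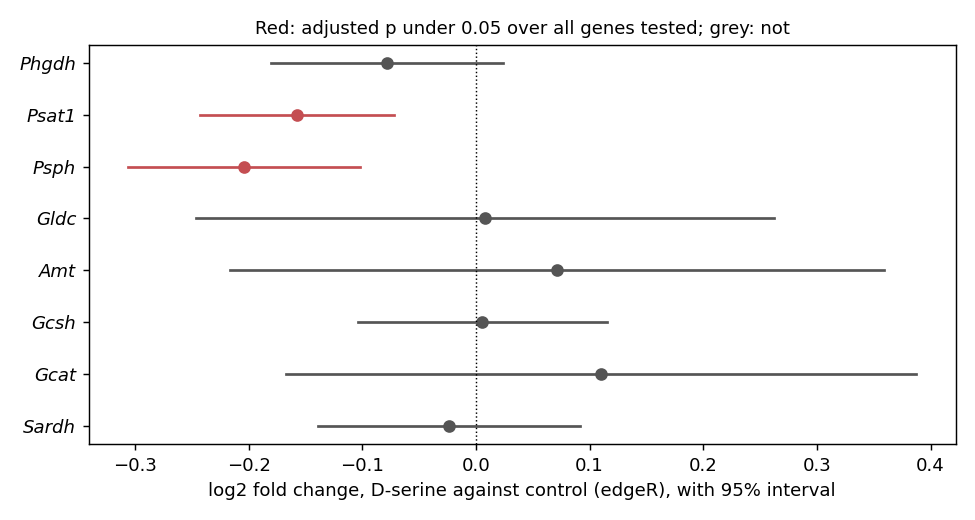
Log2 fold change of D-serine against control for the 8 genes (horizontal axis), with 95% intervals from edgeR. The intervals of Psat1 and Psph lie below 0, and the other 6 span it, with Phgdh reaching from -0.18 to 0.024.

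The call on Phgdh depended on the length trend. With each library's smooth trend on exon length removed, Phgdh passed the threshold (log2 fold change -0.11, edgeR adjusted p = 0.0269), and all 3 serine synthesis genes were then called lower. Calls rose over the 13366 genes too, from 1302 as reported (655 lower) to 2043 in that fit (1020 lower). Psat1 had an adjusted p of 0.0012 and Psph of 0.000145 in that fit. Phgdh, Psat1 and Psph have exon lengths of 1871, 2491 and 1537 bases. Leaving out D-serine replicate 1, the library with the steepest length slope, gave Phgdh an adjusted p of 0.0566. Under 2 other scalings of the libraries, upper quartile and library totals, Psat1 was not called (adjusted p = 0.0675 and 0.0543) while Psph was (0.0412 and 0.0363). The part of the length trend in the fall of Psat1 and Psph was otherwise not tested.

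**Figure D3:**
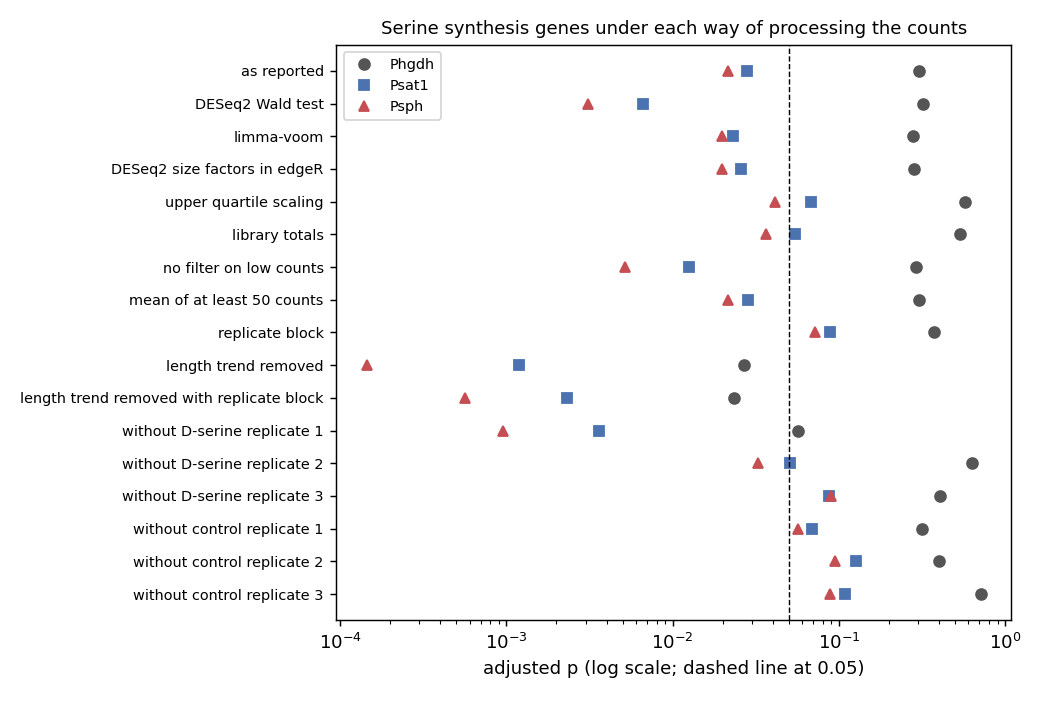
Adjusted p (horizontal, log scale, dashed line at 0.05) of Phgdh, Psat1 and Psph as reported and under 16 other settings (rows). Psph lies left of the line in 11 of the 16 other settings, Psat1 in 8 and Phgdh in 2, both with the length trend removed.

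Ratios between genes of the same library do not depend on how libraries are scaled. These 5 ratios were chosen after the values were seen. Per kilobase of exon, Psph was at 0.242, 0.248 and 0.241 of Phgdh in control and at 0.222, 0.236 and 0.214 with D-serine, without overlap (two-sided exact permutation test, p = 0.1, which is the lowest p possible with 3 libraries a group, and 0.5 when adjusted over the 5 ratios). Psat1 was at 0.469, 0.478 and 0.456 of Phgdh in control and at 0.426, 0.462 and 0.440 with D-serine. These ranges overlap through D-serine replicate 2 (exact p = 0.2, adjusted 0.5). Psph per Psat1 overlapped as well, at 0.517 to 0.529 in control and 0.485 to 0.521 with D-serine (exact p = 0.3, adjusted 0.5). A larger fall of one serine synthesis gene than of another was therefore not shown at this number of libraries.

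Of the glycine cleavage system, none of the subunits Gldc, Amt and Gcsh passed the test. Gldc, the decarboxylase (chromosome 19, 30172931 to 30249931, minus strand), had few counts. They came to 190, 253 and 245 in control and 230, 245 and 278 with D-serine. In CPM these were 5.89, 6.82 and 6.58 against 5.86, 6.66 and 6.90, with the lowest value of each group in its replicate 1 and the ranges almost the same. Gldc had a log2 fold change of 0.0082 (SE 0.12, 95% interval -0.25 to 0.26, edgeR adjusted p = 0.976). A change of up to 20.0% upward or 15.7% downward lies within that interval.

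Amt, the aminomethyltransferase (chromosome 9, 108199253 to 108203928, plus strand), was at 8.89, 6.96 and 7.58 CPM in control and at 7.24, 9.74 and 7.62 CPM with D-serine. D-serine replicate 2 was the highest of all 6 libraries and control replicate 2 the lowest. The log2 fold change was 0.071 (SE 0.13, 95% interval -0.22 to 0.36, edgeR adjusted p = 0.768). Its sign turned to -0.068 without D-serine replicate 2, so no direction can be read for Amt.

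Gcsh, the lipoyl carrier (chromosome 8, 119505728 to 119517349, minus strand), had the narrowest interval of these subunits. It was at 80.3, 79.4 and 81.5 CPM in control and at 85.4, 76.7 and 79.9 CPM with D-serine, where the D-serine libraries bracket the controls. The log2 fold change was 0.0056 (SE 0.051, 95% interval -0.10 to 0.12, edgeR adjusted p = 0.961). The interval leaves room for a fall of at most 6.96% or a rise of at most 8.32%. Of Gldc, Amt and Gcsh, 0 were called by edgeR, DESeq2 or limma-voom, and 0 had an unadjusted p under 0.05 in any of these tests.

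Gcat, the ligase of threonine breakdown (chromosome 15, 78861304 to 78872961, plus strand), was at 5.11, 5.99 and 5.56 CPM in control and 6.65, 5.30 and 6.03 CPM with D-serine. The highest and the second highest value were D-serine libraries, and D-serine replicate 2 lay among the controls. For Gcat the log2 fold change was 0.11 (SE 0.13, 95% interval -0.17 to 0.39, edgeR adjusted p = 0.613). Gcat shares 363 exonic bases with Galr3 on the same strand in the deposited annotation, so its count is uncertain.

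Sardh, the sarcosine dehydrogenase (chromosome 2, 27043913 to 27102823, minus strand), was at 89.3, 90.5 and 99.8 CPM in control and 89.6, 95.3 and 90.2 CPM with D-serine. Control replicate 3 was the highest and the groups overlapped. The log2 fold change was -0.024 (SE 0.053, 95% interval -0.14 to 0.091, edgeR adjusted p = 0.811). Of Gcat and Sardh, 0 were called by edgeR, DESeq2 or limma-voom, and 0 had an unadjusted p under 0.05.

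**Figure D4:**
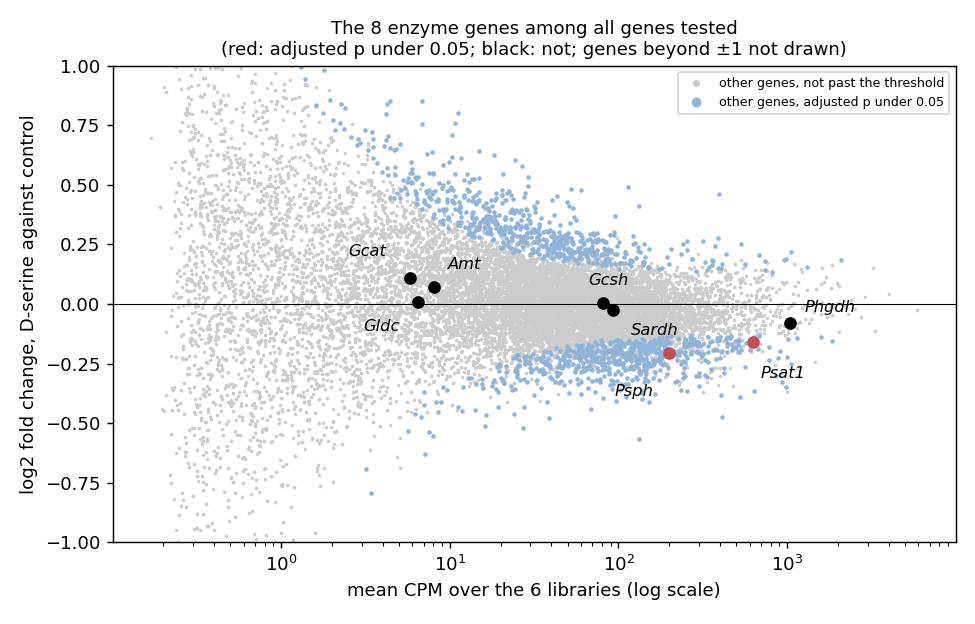
Log2 fold change (vertical) against mean CPM over the 6 libraries (horizontal, log scale) for the genes tested, with the 8 enzyme genes as large points, red where the adjusted p is under 0.05. Psat1 and Psph lie among the called lower genes (blue), and Gldc, Amt and Gcat lie at low CPM where the cloud is wide.

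Levels can be compared between genes only per exon length, here as RPKM, the CPM value divided by exon length in kilobases. In control, Phgdh stood at 569 ± 28.2 RPKM, Psat1 at 266 ± 8.68 and Psph at 139 ± 6.07 (SD, n = 3). By the mean over all 6 libraries, Phgdh was at the 99.3rd, Psat1 at the 98.3rd and Psph at the 96.3rd percentile of the genes tested. The pathway thus had a descending order of transcript level from its first to its last step, and no library departed from it. With D-serine the RPKM levels were 539 ± 26.8, 238 ± 2.26 and 120 ± 4.52 in the same order.

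The glycine cleavage system was uneven. Gcsh was at 60.1 ± 0.78 RPKM in control, Amt at 5.89 ± 0.75 and Gldc at 1.70 ± 0.13 (SD, n = 3). Relative to Gcsh and per kilobase, Gldc came to 0.0283 ± 0.0022 in control and 0.0285 ± 0.0037 with D-serine, and Amt to 0.0980 ± 0.012 and 0.103 ± 0.022. Both ratios overlapped between the groups (two-sided exact permutation test, p = 0.8 each, adjusted 0.8 over the 5 ratios). Gldc was at the 21.5th percentile of the genes tested and Gcsh at the 89.9th. Sardh (20.5 ± 1.26 RPKM in control) lay between Gcsh and Amt, and Gcat (1.87 ± 0.15) was next to Gldc. The RPKM ranges of Gcat and Gldc overlapped in both groups, although Gcat was above Gldc within each of the 6 libraries. The ranges of all other neighbours in the order did not overlap.

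**Figure D5:**
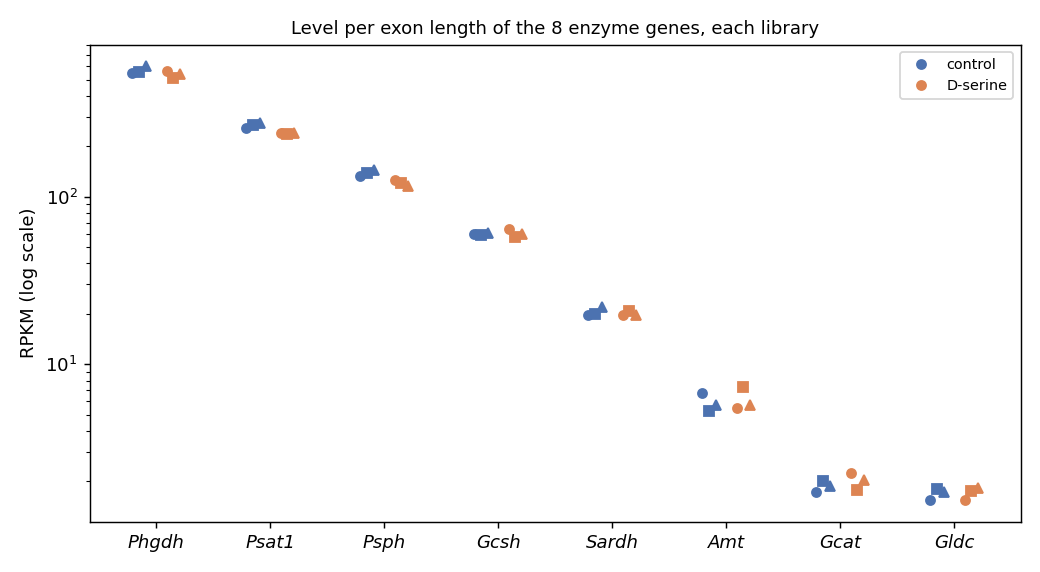
RPKM (vertical, log scale) of the 8 genes in each library, in descending order of the control mean; circles, squares and triangles are replicates 1, 2 and 3. The serine synthesis genes lie between 116 and 601 RPKM, and Gldc lies between 1.55 and 1.82.

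The partners of the glycine cleavage system gave no call. Dld, the dihydrolipoamide dehydrogenase that it shares with other complexes, was at 263 to 282 CPM in control and 279 to 283 CPM with D-serine (log2 fold change 0.038, edgeR adjusted p = 0.588). Lias, the lipoyl synthase, was at 49.6 to 52.4 and 50.3 to 57.6 CPM, and Lipt2, the octanoyl transferase of the same route, at 2.42 to 3.15 and 2.45 to 4.67 CPM. Of 4 partners with Lipt1, 0 were called by edgeR, DESeq2 or limma-voom, and the count at an unadjusted p under 0.05 was 0, 1 and 0 in these tests. The median log2 fold change was 0.056. Lipt2 had the largest estimate, at 0.47 (SE 0.23, edgeR adjusted p = 0.190), and was called only without D-serine replicate 2 (adjusted p = 0.0242).

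Among 21 other enzymes that make or use serine and glycine, 14 were tested and 1 was called, Shmt2, which was lower. This share is near that of all genes tested, of which 9.74% were called, 4.90% lower, and is no result about these enzymes as a group. Shmt2, the mitochondrial hydroxymethyltransferase, was at 1032, 1049 and 1108 CPM in control and at 981, 949 and 947 CPM with D-serine, without overlap. Its log2 fold change was -0.15 (SE 0.040, edgeR adjusted p = 0.0362), and 32 bases of its exons also belong to Ndufa4l2, an antisense neighbour. Shmt2 was not called under upper quartile scaling or on library totals (adjusted p = 0.0930 and 0.0748). Of the 6 fits that left out 1 library, Shmt2 kept its call only in that without D-serine replicate 1, and the highest adjusted p was 0.144. The cytosolic Shmt1 was at 50.8 to 58.2 CPM in control and 47.7 to 49.5 CPM with D-serine, also without overlap, but did not pass the threshold (-0.15, SE 0.058, adjusted p = 0.120), except with the length trend removed (0.0356). The median of the 14 was 0.070, with 9 estimates above and 5 below 0. Transcripts of Srr and Dao, enzymes that act on D-serine, were scarce. The racemase Srr was at 4.02 to 4.93 CPM in control and 4.46 to 5.04 with D-serine, with 1159 of its exonic bases shared with Tsr1 on the opposite strand, and the oxidase Dao was at most at 0.124 CPM in any library and was not tested. Tdh, the dehydrogenase that feeds Gcat, had counts in 1 of the 6 libraries.

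Of 9 regulators known to act on serine synthesis genes, 2 were called, both higher, against 4.84% called higher among all genes tested. Myc was at 339 to 343 CPM in control and 393 to 419 CPM with D-serine (log2 fold change 0.25, SE 0.041, edgeR adjusted p = 0.0077). Mycn, its relative in the neural lineage, was at 141 to 142 CPM in control and 150 to 161 CPM with D-serine (0.15, SE 0.044, adjusted p = 0.0475). Mycn was not called with DESeq2 size factors in edgeR, nor without D-serine replicate 3 or any control replicate (adjusted p up to 0.160). When control replicate 2 was omitted, Myc was no longer called (adjusted p = 0.0548). Atf4, the transcription factor of the amino acid response, was at 1024, 1044 and 1057 CPM in control and at 1272, 1104 and 1130 CPM with D-serine. No library of the groups overlapped for Atf4, but it did not pass the threshold (0.17, SE 0.050, adjusted p = 0.0527), which it did in 8 of the 16 other settings, among them the fit without D-serine replicate 1 (0.0329). Without D-serine replicate 1, 5 of the 9 were called, with Myc, Mycn and Atf4 higher and Atf5 and Trib3 lower (log2 fold change -0.17 and -0.15). That fit called 782 of the 13366 genes higher and 916 lower. The median of the 9 was -0.023.

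The serine synthesis genes, Phgdh as well as the called Psat1 and Psph, are known targets of the amino acid response. In it, ATF4 raises genes for amino acid supply when amino acids run short. Of 15 other targets, 14 were tested and 5 were called, all lower, where 4.90% of all genes tested were called lower. These were the transporters Slc7a11 (log2 fold change -0.32), Slc7a1 (-0.30) and Slc3a2 (-0.25), the cysteinyl-tRNA synthetase gene Cars (-0.27) and the transcription factor gene Cebpb (-0.26). Cars was at 264 to 270 CPM in control and 214 to 225 CPM with D-serine, and it stayed past the threshold in all 16 other settings. Slc7a11 and Slc7a1 lost their calls without control replicate 1 or 2 (adjusted p up to 0.0751 and 0.0654). They have exon lengths of 9227 and 7239 bases. D-serine replicate 1, the library with the steepest length slope, was their lowest. It was at 171 CPM against 208 and 216 for Slc7a11 and 674 against 807 and 810 for Slc7a1. Their weakest estimates over the 16 other settings were -0.20 and -0.21, and over the fits that left out 1 library -0.23 and -0.22. Both genes stayed past the threshold, and lower, with the length trend removed. The part of the length trend in these falls was otherwise not tested. Slc3a2 lost its call without control replicate 2 (0.0501), and Cebpb without D-serine replicate 3 or any control replicate (up to 0.0740). Asns, the asparagine synthetase, was at 1158 to 1226 CPM in control and 1095 to 1170 CPM with D-serine, ranges that overlap (log2 fold change -0.081, edgeR adjusted p = 0.205). Without D-serine replicate 1, 9 of the 14 were called, all lower, in a fit that called 916 of the 13366 genes lower. Asns was among the 9 (adjusted p = 0.0358), and it was also called with the length trend removed (0.0108). The median of the 14 was -0.10, with 11 estimates below 0. The 3 above 0 were Ddit3 (log2 fold change 0.11, edgeR adjusted p = 0.128), Ddit4 (0.11, 0.149) and Sars (0.073, 0.304). Ddit3 was at 255 to 259 CPM in control and 265 to 291 CPM with D-serine, without overlap. Some of these genes were already known to be lower in these data when the list was written, so the list is no independent evidence of a direction.

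Profiles across the 6 libraries were also compared by the root mean square distance between log2 CPM values, each centred on the gene's mean, among 8886 genes with a mean of at least 10 CPM. The genes nearest to Psat1 were Rpa1 (distance 0.0072), Slc7a3 (0.0098) and Plekhb2 (0.012). Those nearest to Psph were Eif2b2 (0.018), Opa3 (0.018) and Herpud1 (0.020). Phgdh lay nearest to Jagn1 (0.012), Rftn1 (0.015) and Bad (0.015), and Gcsh to Swi5 (0.0080), Bub3 (0.0086) and Samm50 (0.011). Gldc and Amt had no profile as near, with Vars2 (0.034), Dph1 (0.034) and Kctd9 (0.038) nearest to Gldc, and Zfp58 (0.066), Mrc2 (0.068) and Mars2 (0.076) nearest to Amt. With 6 libraries and this many candidates, small distances occur for many genes, and the names are a description only.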

How the data were processed

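Poly(A) RNA of 6 Neuro2a libraries was measured as raw counts per gene, deposited by the authors in 1 table with exon coordinates and summed exon length. Per the submitters' processing notes, the tools were bcl2fastq, Trim Galore, HISAT2, featureCounts (Subread) and DESeq2, and the builds GRCm38 and mm10, with no versions, roles or strand setting. The deposited exon coordinates of the 8 genes start at the GRCm38.p6 RefSeq position in 0 of 8 cases, so they are given as deposited, 1-based, with the build not stated in the table. Promoter windows come from RefSeq on GRCm38.p6 and were not joined to those coordinates. Reads shared between overlapping genes, and on opposite strands, may have been counted in ways that are not given in the sources used here.

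Counts were analysed with edgeR 4.0.16 in R 4.3.3, with filterByExpr, TMM scaling, a quasi-likelihood F test with no covariate, and Benjamini-Hochberg adjustment over all 13366 genes tested (threshold 0.05, two-sided). The SE is the log2 fold change divided by the square root of F. CPM uses TMM-scaled totals, and RPKM divides it by exon length in kilobases. Libraries of a group differed by 3.88 to 17.7 chi-square units per degree of freedom, so none was counted as a copy. The fit was tested on simulated counts with 1.5-fold and 2-fold changes, of which 85.7% and 99.0% were called, against 0.046% of unchanged genes. The simulation used the same spread for all genes and no length trend. It held no change as small as those of Psat1 and Psph, so it cannot speak for their calls.

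Alternatives were DESeq2 1.42.0, limma-voom (limma 3.58.1), 3 other scalings, 2 other filters, the replicate number as a block, removal of the trend on exon length (natural spline, 5 degrees of freedom), alone and with the block, and leaving out each library. The text names all 8 genes, the called genes of each pathway list or else its most abundant ones, and the 3 nearest profiles of 6 genes. Shmt1, Srr, Dao, Tdh, Atf4, Asns, Ddit3, Ddit4 and Sars were named after their values were seen. The 8 genes, the lists and the tests were chosen with earlier results of these data known. Some neuroblast markers are not reported here.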

Additional observations from a re-analysis of the deposited data

How the results depend on the processing

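The log2 fold changes of Phgdh, Psat1 and Psph were negative in all 16 other settings, and those of Gcat were positive in all of them, but calls were not stable. With the replicate block, 298 genes were called (178 higher, 120 lower) and 0 of the 8 enzyme genes, with Psat1 at -0.16 (adjusted p = 0.0878) and Psph at -0.20 (adjusted p = 0.0717). Shmt2, Mycn and Cebpb were not called with it either (adjusted p = 0.103, 0.116 and 0.0519). The labels name no batch shared by libraries of the same replicate number. The deviations of same-numbered libraries correlated at -0.0687, 0.0197 and -0.0187, and control replicates 1 and 3 did not correlate best with their own number. With 3 libraries a group, these correlations cannot settle whether same-numbered libraries were paired. With the length trend removed, 2043 genes were called (1023 higher, 1020 lower), Phgdh was called at -0.11 with and without the block, Gcsh turned to -0.063 (-0.064 with the block) and Sardh to 0.013 (0.014). Under upper quartile scaling and library totals, 412 genes were called lower in each, 1 enzyme gene was called in each, the median of the 8 genes was 0.021 and 0.020, Psat1 was at -0.13 in both, and Sardh turned to 0.0056 and 0.0054. The mean Psat1 level with D-serine was 241 RPKM on library totals. The median of the 8 genes was -0.032 with the length trend removed and the block. Without a filter, 984 genes were called lower. The cause of these differences was not tested.

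Leaving out 1 library gave 68 to 1698 called genes, 47 to 782 higher, 21 to 916 lower, and 0 to 2 of the 8 enzyme genes, whose median ran from -0.050 to 0.021. The lowest count of all genes came without control replicate 2, and counts of 125, 453 and 291 came without control replicate 1, control replicate 3 and D-serine replicate 3. Log2 fold changes ran from -0.18 to -0.13 for Psat1, from -0.23 to -0.17 for Psph, from -0.049 to 0.075 for Gldc, from -0.068 to 0.17 for Amt, from -0.037 to 0.041 for Gcsh and from -0.052 to 0.029 for Sardh. At the depth of these libraries, changes of Gldc, Amt and Gcat under the width of their intervals were not detectable.

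In the pathway lists, the other serine and glycine enzymes had 0 calls under upper quartile scaling, library totals and the replicate block, and 3 with the length trend removed, with and without the block, where their median was 0.0090 and 0.011. Without 1 library they had 0 to 1 calls and a median of -0.022 to 0.11. The regulators had 1 call with DESeq2 size factors and with the replicate block, and 5 with the length trend removed, with and without the block. Their median was 0.0073 under upper quartile scaling, 0.0068 on library totals, -0.00024 with the length trend removed and 1.6e-05 with the block added. Without 1 library they had 0 to 5 calls and a median of -0.043 to 0.010. The amino acid response targets had 9 calls with the length trend removed, with and without the block, a median of -0.072 under upper quartile scaling and library totals, and 1 to 9 calls without 1 library. The cleavage system partners had 0 to 1 calls and a median of 0.032 to 0.20 without 1 library.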
